A study of Homo sapiens with 20 samples.

Results

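The BCL2 family decides whether a cell under stress opens its mitochondria and dies. Its RNA was followed here in HEL cells, a human erythroleukaemia line that carries the JAK2 V617F mutation. The 10 genes described were chosen by name, 1 row per Ensembl gene, out of 55093 genes in each of 2 count tables and 34213 in the third. They are 5 anti-apoptotic members, BCL2, BCL2L1, MCL1, BCL2A1 and BCL2L2, and 5 pro-apoptotic members, BAX, BAK1, BCL2L11, PMAIP1 and BBC3. All 10 passed the filter on low counts in all 3 tables. The questions were whether these genes respond to drugs against DUSP6 and RSK, which act in ERK signalling, and whether they differ in cells that live on in a JAK2 inhibitor.

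There were 20 libraries in 10 groups of 2. In the first table HEL cells had the solvent DMSO or 1 µM BCI, which blocks the phosphatases DUSP6 and DUSP1, for 4 h or 48 h. In the second table they had DMSO, 10 µM BI-D1870, an inhibitor of the RSK kinases, or 10 µM BI-D1870 with 1 µM BCI, for 24 h. The third table held parental HEL cells without a stated treatment, RuxP cells and FedP cells. RuxP and FedP are ruxolitinib-persistent and fedratinib-persistent HEL cells, grown for a long time with a JAK2 inhibitor. All groups share the one mutant line, and no source used here says how many persistent populations were raised, whether the inhibitor was still present at harvest, or whether replicates were separate cultures. The p-values therefore measure only the spread between these samples.

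Libraries held 51799814 to 84452743 counts. CPM are counts divided by the TMM-scaled library size and serve to compare 1 gene between libraries of a table. TPM are counts per base of exon scaled to the same sum in each library, and serve to compare genes with each other. Of 10 erythroid and megakaryocyte markers 9 were above 1 CPM in every library, led by HBG2, while 4 of 6 lymphoid markers stayed at or below 1 CPM in all of them. Also above 1 CPM in every library were 1 of 5 monocyte and granulocyte markers, LYZ, and 2 of 6 epithelial and stromal ones, KRT8 and KRT18. The 2 parental libraries stood apart from each other: the chi-square of their counts was 327 per degree of freedom, against 4.73 to 86.9 within the other 9 groups. The members and the pathway genes named were therefore also fitted with each parental library left out. Marker calls against parental cells are given for the full table only. A fall of an RNA in these bulk samples may mean fewer cells of a kind or less RNA per cell, and these cannot be told apart.

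As background, the anti-apoptotic proteins have a groove that holds the BH3 helix of their pro-apoptotic relatives. BAX and BAK1 are the effectors, which form pores in the outer mitochondrial membrane and let cytochrome c out to start the caspases. BCL2L11 (BIM), PMAIP1 (NOXA) and BBC3 (PUMA) are BH3-only proteins, sensors that fill the grooves or activate the effectors. BIM and PUMA bind all of the anti-apoptotic proteins, while NOXA prefers MCL1 and BCL2A1. BCL2L1 (BCL-XL) is the main survival member of maturing red cell precursors, and ERK marks the longest BIM protein for destruction.

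The BH3 helix is what the members share, so its coding sequence is shown for the members the results turn on. The stretches of 27 bases were read from GENCODE 29 transcripts on GRCh38 by searching the translated frame for leucine, 3 residues other than proline, glycine or alanine, and aspartate. Capitals mark the codon of the leucine and the codons of the glycine or alanine and the aspartate.
BCL2L1: gcgCTGagggaggcaGGCGACgagttt
MCL1: accTTAcgacgggttGGGGATggcgtg
BCL2: accCTCcgccaggccGGCGACgacttc
BCL2L11: gagTTGcggcgtattGGAGACgagttt
PMAIP1: caaCTCaggagatttGGAGACaaactg
BBC3: cagCTGcggcggatgGCGGACgacctc
The stretch of BCL2L1 lies at chr20:31721928-31721954 on the minus strand and that of BCL2L11 at chr2:111150100-111150126 on the plus strand, each within 1 coding exon. MCL1 has it at chr1:150578871-150578897 (minus), BCL2 at chr18:63318355-63318381 (minus), PMAIP1 at chr18:59902670-59902696 (plus) and BBC3 at chr19:47226585-47226611 (minus). BBC3 has an alanine codon, GCG, where the other 5 have a glycine codon. The pattern was found once in each of 8 members, BAX and BAK1 included, and in neither BCL2A1 nor BCL2L2. A BH3 helix with other residues at these positions is missed by this search, so a missing match does not mean a missing helix.

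Per unit of exon length, BCL2L1 was the highest of the 10 members in every group, at a mean of 112 TPM in RuxP cells and of 209 to 425 TPM in the other 9 groups. MCL1, a short-lived survival protein, came next in 9 groups, from 65.3 TPM in parental cells to 256 TPM with BI-D1870 and BCI. In RuxP cells PMAIP1 (54.8 TPM) and MCL1 (52.5 TPM) had overlapping library values. BCL2L1 and MCL1 together made 90.3 to 97.9% of the summed TPM of the 5 anti-apoptotic members in every library. BCL2 itself made 0.0533 to 1.88% of it.

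Among the pro-apoptotic members BAX had the highest mean TPM in 8 groups. The exceptions were BI-D1870 alone, with BCL2L11 at 66.6 TPM and BAX at 64.3 TPM, and RuxP, with PMAIP1 above BAX (31.2 TPM). With BI-D1870 and BCI the library ranges of BAX (69.5 to 74.4 TPM) and BCL2L11 (70.1 to 71.7 TPM) overlapped. In parental cells, in falling order of MCL1, BAX, BBC3, PMAIP1 and BCL2L11, the range of each of the first 4 overlapped that of the member after it. BAK1 ran from 6.09 TPM in RuxP cells to 37.9 TPM in DMSO cells at 4 h. BCL2A1 (BFL1), an NF-kappaB target of lymphoid and myeloid cells, was lowest in 9 groups, with 7 to 58 counts per library, and no change of it passed the test in any of the 10 comparisons. Its intervals are wide, for example -1.10 to 1.13 (95%, log2) for BCI at 4 h.

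**Figure D1:**
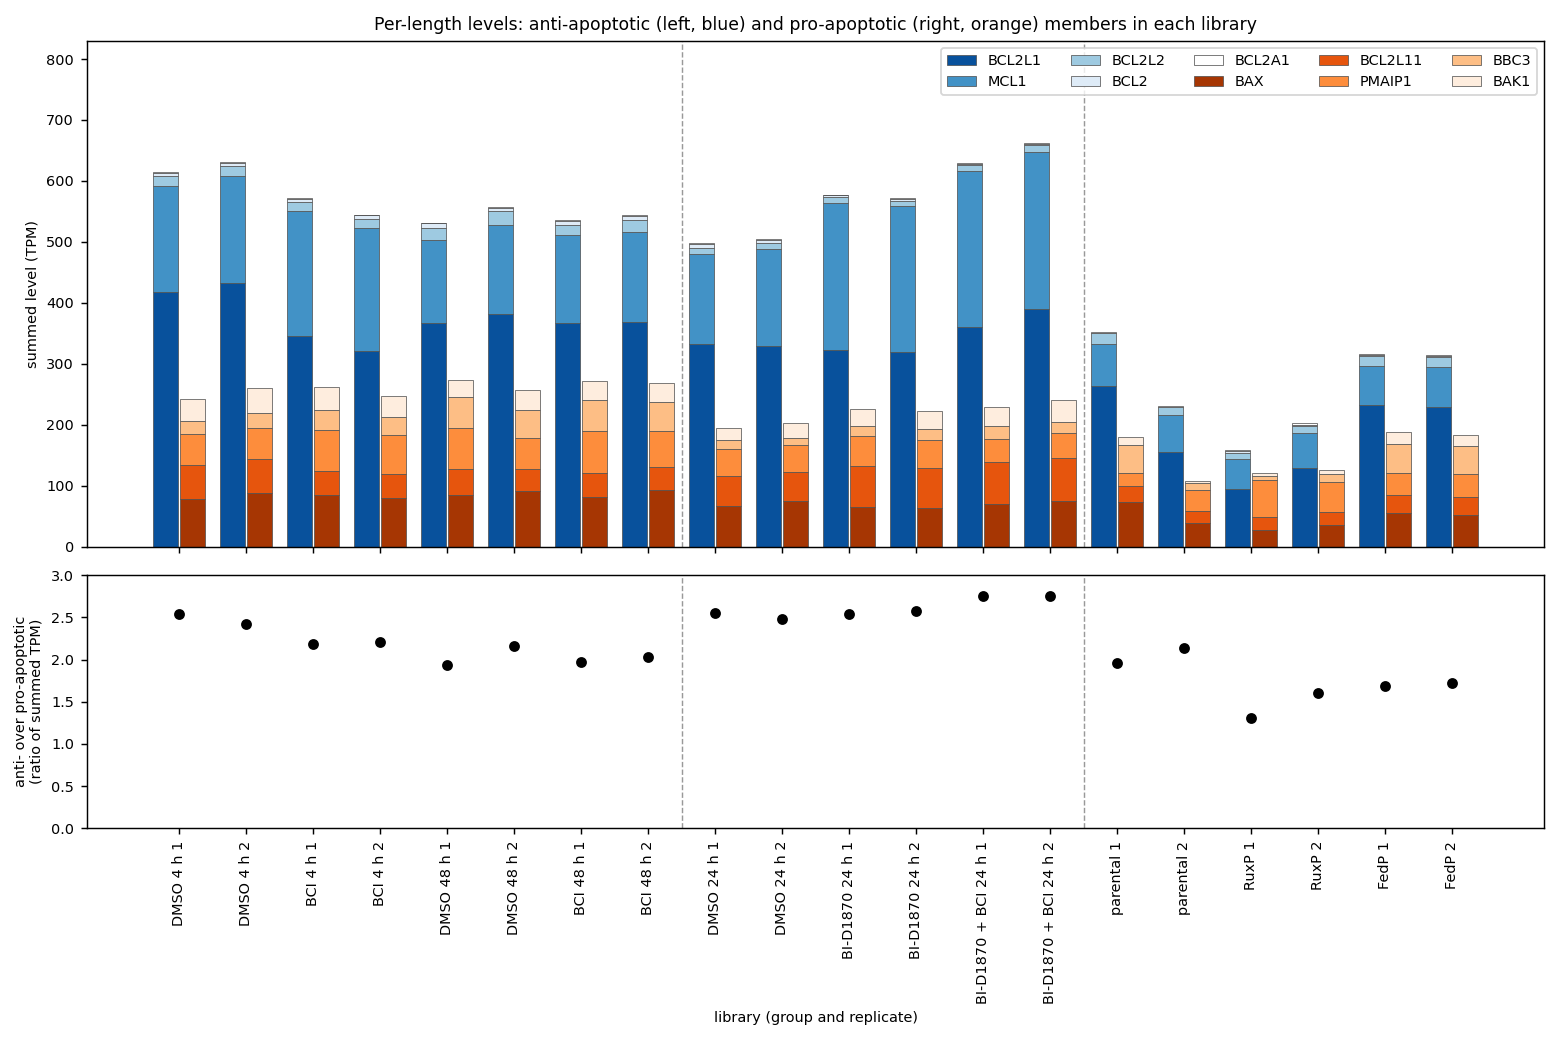
Stacked per-length levels (TPM) of the 5 anti-apoptotic members (blue) and the 5 pro-apoptotic members (orange) in each library, above the ratio of the 2 sums; dashed lines divide the 3 tables. BCL2L1 and MCL1 fill most of each blue bar, and the ratio runs from 1.31 in RuxP replicate 1 to 2.76 in replicate 2 of BI-D1870 with BCI.

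The ratio of summed anti-apoptotic to summed pro-apoptotic TPM is a description and was not tested. It was 2.54 and 2.43 in the DMSO libraries at 4 h and 2.19 and 2.20 with BCI. At 48 h it was 1.94 and 2.16 with DMSO and 1.97 and 2.03 with BCI, which overlap. In the second table it was 2.55 and 2.48 with DMSO, 2.54 and 2.58 with BI-D1870 and 2.75 and 2.76 with the pair. Parental cells had 1.96 and 2.14, RuxP cells 1.31 and 1.60, and FedP cells 1.68 and 1.72. The persistent libraries lay below both parental ones, and the ratio was lower with BCI than without it at 4 h only.

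**Figure D2:**
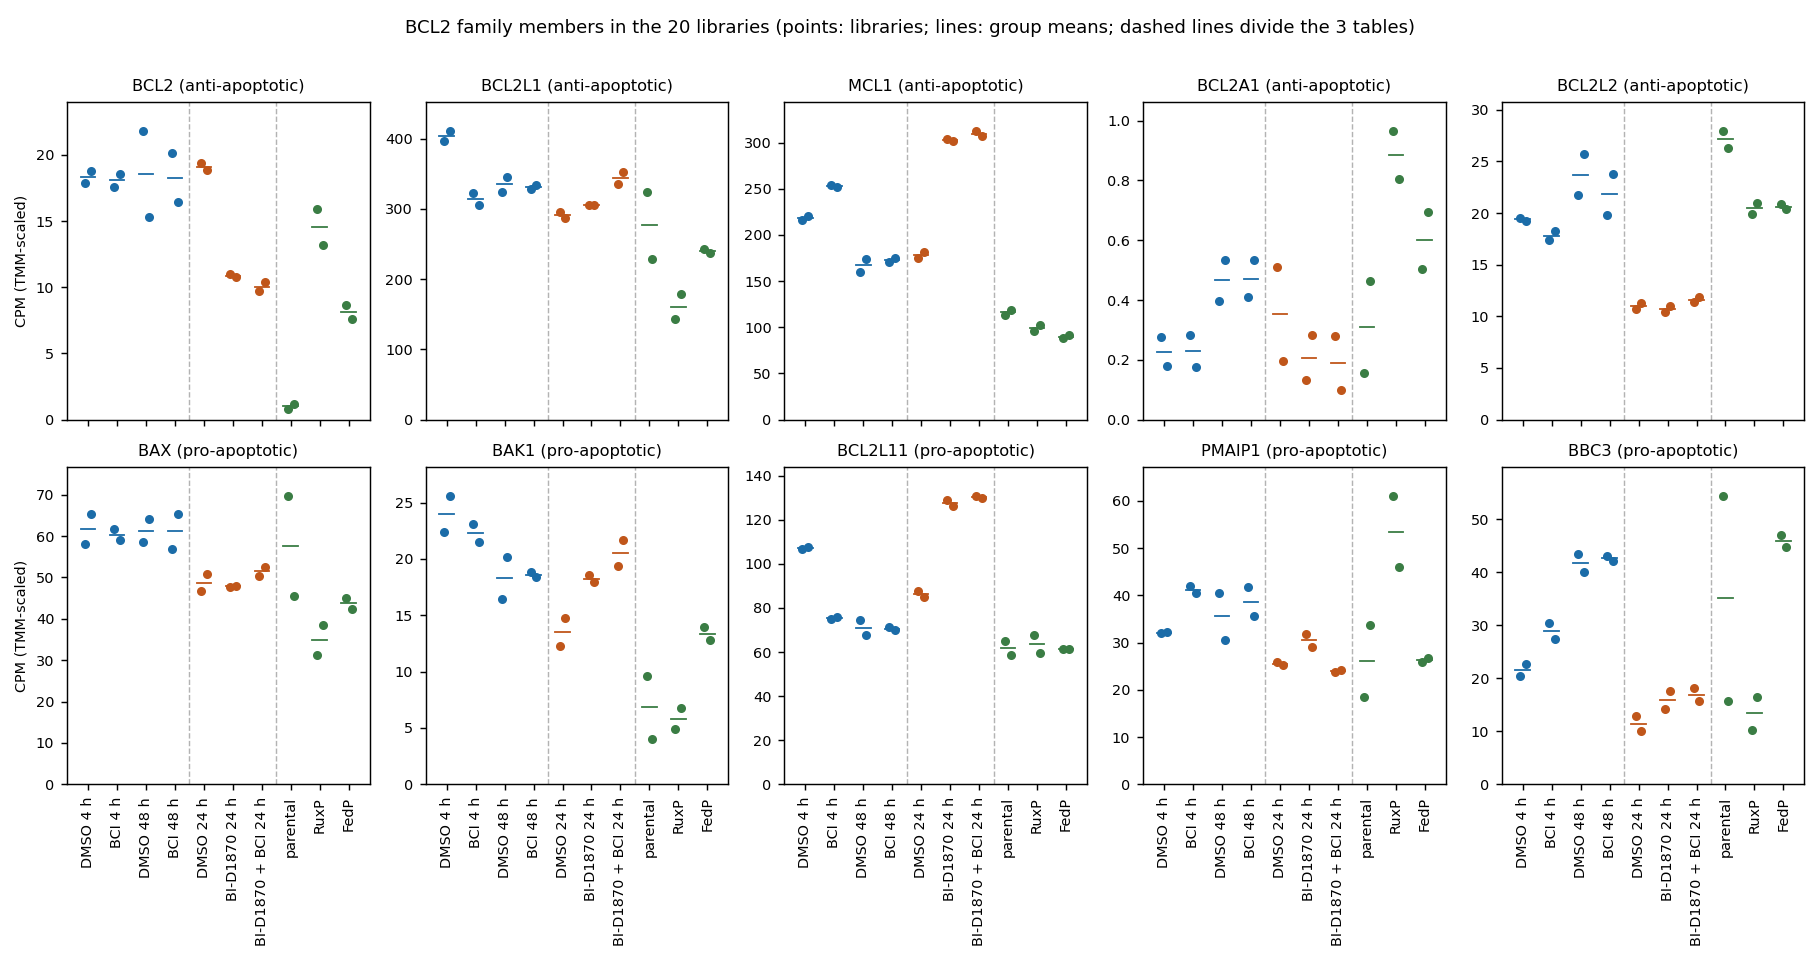
CPM of each member (y axis, from 0) in the 10 groups (x axis); points are libraries, horizontal lines group means, and dashed lines divide the tables, which were scaled separately. BCL2 is near 1 CPM in the parental libraries only, MCL1 and BCL2L11 rise with BI-D1870, and the parental points of BBC3, BAK1 and BAX lie far apart.

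The first comparison asked what 4 h of BCI does to the family. BCL2L1 and BCL2L11 fell and BBC3 rose, and the other 7 members did not pass the test. These 3 of 10 members stand beside 10.7% of all 21908 genes called in either direction (edgeR, adjusted p under 0.05). Of the anti-apoptotic members 1 fell and none rose, and of the pro-apoptotic members 1 fell and 1 rose.

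BCL2L1 was at 397 and 411 CPM in the DMSO libraries and at 323 and 305 CPM with BCI. Both treated libraries were lower, by 0.36 on the log2 scale (log2 -0.36, SE 0.0725, adjusted p = 0.013). Its reads may include some of the antisense gene ABALON, which overlaps 43% of its exon bases, because the strand setting of the counting is not given. MCL1 was at 216 and 221 CPM with DMSO and at 254 and 252 CPM with BCI, 2 groups that did not overlap (log2 0.21, SE 0.0729, adjusted p = 0.11). BCL2 was level, with 17.9 and 18.8 CPM against 17.6 and 18.6 CPM (log2 -0.02, 95% interval -0.39 to 0.35). The interval of BCL2L2 (BCL-W) was -0.40 to 0.15, and 19.4% of its exon bases are shared with the readthrough gene BCL2L2-PABPN1.

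Of the effectors, BAX had an interval of -0.26 to 0.19 and BAK1 one of -0.38 to 0.17 on the log2 scale. Of the BH3-only members, BCL2L11 went from 107 and 107 CPM with DMSO to 74.9 and 76.0 CPM with BCI. The fall was to 0.704 of the control mean (log2 -0.51, SE 0.0767, adjusted p = 0.0032). BBC3, a target of p53 and of FOXO factors, went from 20.4 and 22.6 CPM to 30.5 and 27.4 CPM (log2 0.43, SE 0.0988, adjusted p = 0.025). PMAIP1 had 32.0 and 32.2 CPM with DMSO and 41.9 and 40.4 CPM with BCI, without overlap (log2 0.36, SE 0.135, adjusted p = 0.14). The BH3-only members thus moved apart, with BCL2L11 lower and BBC3 higher in the same libraries.

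The calls of BCL2L1 and BBC3 were lost when any 1 of the 4 libraries at 4 h was left out (adjusted p up to 0.15 and 0.24), and that of BCL2L11 when BCI replicate 1 or either DMSO library was (up to 0.061). In a fit of the 4 h libraries alone MCL1 (adjusted p = 0.0032) and PMAIP1 (adjusted p = 5.2e-04) passed as well. PMAIP1 also passed in edgeR without the filter on low counts (adjusted p = 0.020). Over all fits of this comparison, that of the 4 h libraries alone included, the share of all genes called ran from 0.872 to 28.3%.

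At 48 h of BCI no member passed the test, and neither did any of the 21908 genes (0% called). At unadjusted p under 0.05 edgeR counted 316 genes and no member. DESeq2 and limma-voom also called 0 genes, with 206 and 314 at unadjusted p under 0.05. Same-numbered DMSO and BCI libraries of 48 h deviated alike (r = 0.82 over 11390 genes). The main fit, without a block, did not use this. A replicate block over the whole table called 0 genes as well, with 364 at unadjusted p under 0.05. It assumes the same pairing at 4 h, where r was -0.01, so pairing at 48 h alone was not tested. Without the filter on low counts edgeR called 27 genes, 5 higher and 22 lower, and no member. The 316 genes at unadjusted p under 0.05 became 2079 without DMSO replicate 1 of 48 h, 533 without DMSO replicate 2 and 920 without BCI replicate 2, with 0 called after adjustment. BCL2L11 was at 74.3 and 67.9 CPM with DMSO and at 71.2 and 69.8 CPM with BCI, and the treated values lay between the control ones. BCL2L1 had 324 and 346 CPM against 328 and 334 CPM. The 95% interval of the log2 difference was -0.18 to 0.16 for BCL2L11, -0.18 to 0.15 for BCL2L1, -0.11 to 0.22 for MCL1 and -0.19 to 0.25 for BBC3.

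The difference between the BCI responses at 48 h and 4 h was tested directly, with 3.46% of all genes called. BCL2L11 was the 1 member called, its response being higher at 48 h than at 4 h by 0.49 on the log2 scale (SE 0.108, adjusted p = 0.041). Without 1 library the adjusted p rose to as much as 0.24, and the call was lost for 7 of the 8 libraries. BCL2L1 (log2 0.35, adjusted p = 0.11) and BBC3 (log2 -0.40, adjusted p = 0.17) did not pass.

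DMSO cells also changed between 4 h and 48 h, in 26.6% of genes and in 5 of the 10 members. BBC3 rose from 20.4 and 22.6 CPM to 43.4 and 40.1 CPM, 1.94 times the earlier mean (log2 0.96, SE 0.0990, adjusted p = 3.1e-04). BCL2L11 fell to 74.3 and 67.9 CPM (log2 -0.59, SE 0.0767, adjusted p = 8.1e-04). Both later DMSO values lay below the 74.9 and 76.0 CPM of BCI cells at 4 h. MCL1 fell from 216 and 221 CPM to 160 and 174 CPM (log2 -0.39, SE 0.0730, adjusted p = 0.0044). BCL2L1 (log2 -0.27, adjusted p = 0.023) and BAK1 (log2 -0.39, adjusted p = 0.044) fell too. In a fit of these 4 libraries alone BCL2L1 and BAK1 no longer passed, and without DMSO replicate 2 of 4 h the call of MCL1 was lost (adjusted p = 0.052). This comparison shares its DMSO libraries with those of BCI.

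**Figure D3:**
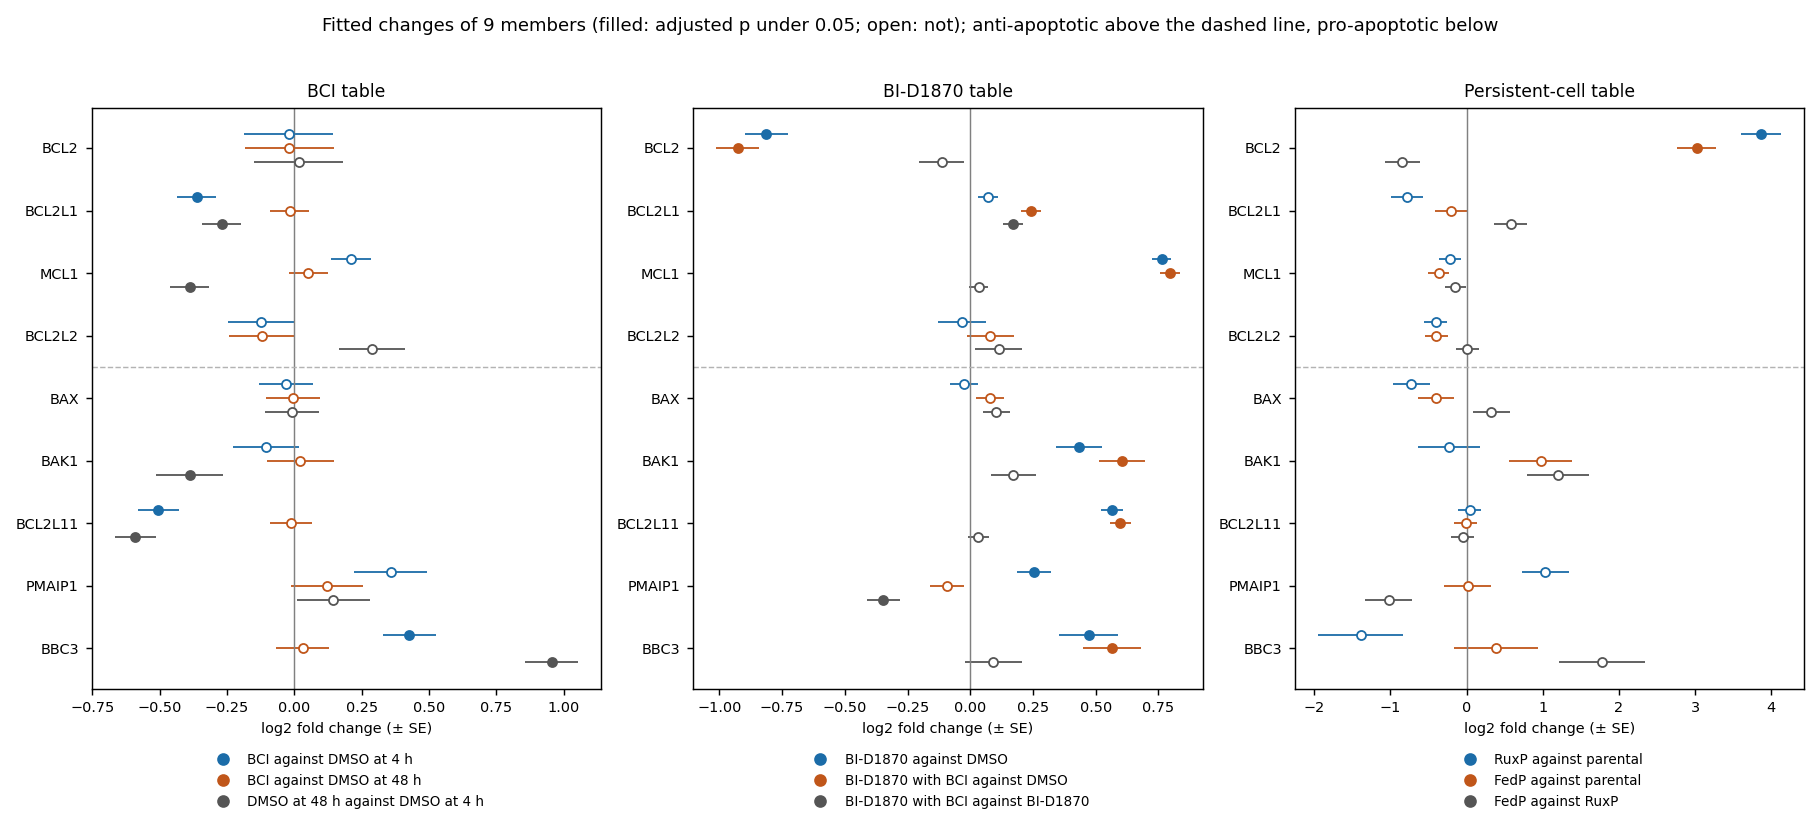
Log2 fold changes (x axis, ± SE) of 9 members in 9 comparisons, by table; filled points had an adjusted p under 0.05, and BCL2A1 is left out for its low counts. With BI-D1870 the BH3-only members and BAK1 lie to the right of 0 together with MCL1, and BCL2 lies to the left; in the persistent cells BCL2 alone is filled.

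The RSK inhibitor moved more of the family. After 24 h of BI-D1870 the effector BAK1, all 3 BH3-only members and MCL1 rose, and BCL2 fell, in all 6 of 10 members. The background was as broad, with 47.1% of 21328 genes called, so the count by itself is near that of genes at large. Of the pro-apoptotic members 4 rose and none fell, with a median log2 change of 0.43. Of the anti-apoptotic members 1 rose and 1 fell, with a median of -0.03 beside -0.01 for all genes. With each library of this table left out the pro-apoptotic median ran from 0.31 to 0.47, and the anti-apoptotic one from -0.04 to 0.10, on both sides of 0.

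MCL1 went from 175 and 182 CPM to 303 and 302 CPM, 1.70 times the control mean (log2 0.76, SE 0.0389, adjusted p = 5.2e-12). All values with BI-D1870 exceeded those with DMSO by far more than the spread of a pair. BCL2 went the other way, from 19.4 and 18.8 CPM to 11.0 and 10.8 CPM (log2 -0.81, SE 0.0867, adjusted p = 1.8e-07). BCL2L1 had 295 and 287 CPM with DMSO and 306 and 306 CPM with BI-D1870 (log2 0.07, 95% interval -0.01 to 0.15). BCL2L1 thus stayed within a narrow interval while MCL1 and BCL2 separated. MCL1 came to make 42.0 and 41.8% of the anti-apoptotic TPM, against 29.9 and 31.4% with DMSO.

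BCL2L11 went from 87.5 and 84.9 CPM to 129 and 126 CPM (log2 0.57, SE 0.0426, adjusted p = 1.4e-09). Part of its exon bases, 10.9%, overlap the long noncoding gene MIR4435-2HG on the other strand. BAK1 rose from 12.2 and 14.7 CPM to 18.6 and 17.9 CPM (log2 0.43, SE 0.0935, adjusted p = 6.9e-04). BBC3 had 12.8 and 10.1 CPM against 14.2 and 17.5 CPM (log2 0.47, SE 0.118, adjusted p = 0.0025), and PMAIP1 25.8 and 25.3 CPM against 31.9 and 29.1 CPM (log2 0.25, SE 0.0680, adjusted p = 0.0044). BAX, the other effector, had an interval of -0.14 to 0.09. Without BI-D1870 replicate 1 the call of PMAIP1 was lost (adjusted p = 0.080), and without DMSO replicate 2 or BI-D1870 replicate 2 that of BBC3 was (adjusted p up to 0.075). Against a fold change of at least 1.5, MCL1 and BCL2 passed and the other 4 did not.

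BCL2L11, BAK1 and BBC3 rose with both treatments that held BI-D1870, so the windows of their promoters that hold a searched motif are shown. RefSeq promoters (GRCh38.p14, from 250 bases before to 50 after the start site) were given for 8 of the 10 members, without MCL1 and BCL2L2. They were searched on both strands for 8 motifs. Each window is 30 bases on the gene's strand with the match in capitals.
BCL2L11, FOXO motif: gagttactccgGTAAACAcgccagggacgg
BAK1, heat shock element: gcagtgcttaaGAAACTTCtcaccctgggt
BBC3, E-box: atggggagatttCACGTGagatatagatta
BBC3, AP-1 motif: gcactggaaggTGAGTCActctggtgaggc
The window of the FOXO motif, GTAAACA, lies at chr2:111120680-111120709, and 3.42% of 35116 promoters hold the motif. The window of the heat shock element, GAANNTTC, was at chr6:33580484-33580513 (motif in 6.77% of promoters). The window of the E-box, CACGTG, was at chr19:47232882-47232911 (7.26%) and that of the AP-1 motif, TGANTCA, at chr19:47232762-47232791 (7.71%). BAX, which edgeR called in none of the 10 comparisons over all libraries, had 4 E-boxes in its promoter. A STAT motif, TTCNNNGAA (7.66% of promoters), and a C/EBP-ATF motif, TGATGCAA (0.866%), were found in that of BCL2A1. A cyclic AMP element, TGACGTCA (1.85%), and a GATA motif, AGATAA (10.3%), were in none of the members' windows. A match is a description of these letters and not a site in use.

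With BI-D1870 and BCI together 6 of 10 members passed against DMSO, beside 46.8% of genes. This comparison and that of BI-D1870 alone use the same DMSO libraries. MCL1 was at 313 and 307 CPM (log2 0.80, SE 0.0389, adjusted p = 2.6e-12) and BCL2 at 9.74 and 10.4 CPM (log2 -0.93, SE 0.0861, adjusted p = 2.6e-08). BCL2L11 was at 131 and 130 CPM (log2 0.60, adjusted p = 5.5e-10), BAK1 at 19.4 and 21.7 CPM (log2 0.60, adjusted p = 1.7e-05) and BBC3 at 18.2 and 15.7 CPM (log2 0.56, adjusted p = 4.4e-04). BCL2L1 rose as well, to 335 and 352 CPM (log2 0.24, SE 0.0390, adjusted p = 3.3e-05). PMAIP1 had 23.7 and 24.2 CPM, just below both DMSO libraries (log2 -0.09, adjusted p = 0.29). Pro-apoptotic members had a median log2 change of 0.56 and anti-apoptotic ones of 0.08.

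The effect of adding BCI was tested as the pair against BI-D1870, with 4.71% of genes called. PMAIP1 fell, from 31.9 and 29.1 CPM to 23.7 and 24.2 CPM (log2 -0.35, SE 0.0675, adjusted p = 0.0041). BCL2L1 rose from 306 and 306 CPM to 335 and 352 CPM (log2 0.17, SE 0.0390, adjusted p = 0.014). The ratio of PMAIP1 to MCL1 in TPM was 0.289 and 0.272 with DMSO, 0.205 and 0.188 with BI-D1870 and 0.148 and 0.154 with the pair. The other 8 members did not pass, and the interval of MCL1 was -0.05 to 0.11 and that of BCL2L11 -0.06 to 0.12 on the log2 scale. Without BI-D1870 replicate 1 both calls were lost, without replicate 1 of the pair that of PMAIP1 was (adjusted p up to 0.12), and without BI-D1870 replicate 2 or replicate 2 of the pair that of BCL2L1 was (up to 0.25).

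Markers of the cell type moved in the same libraries. Of the 10 erythroid and megakaryocyte markers 9 fell and 1 rose with BI-D1870, and again with the pair. Of all genes 47.1% were called with BI-D1870 and 46.8% with the pair. Their summed level was 5158 and 5384 CPM with DMSO, 4143 and 4267 CPM with BI-D1870 and 3387 and 3778 CPM with the pair (CPM of plain library size), and none was at 0. Both lymphoid markers tested, CD79A and NKG7, fell with BI-D1870, and the 6 lymphoid markers summed to 6.81 and 7.80 CPM with DMSO, 3.12 and 2.77 CPM with BI-D1870 and 4.07 and 3.62 CPM with the pair, with 2 or 3 of them at 0 in each library. Of 3 tested monocyte and granulocyte markers LYZ and CSF1R fell with BI-D1870. Of 3 tested epithelial and stromal markers KRT8 rose and KRT18 fell. Their part in the results on the members was not tested.

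In the persistent cells 1 member stood out. BCL2 had 47 and 61 counts, or 0.818 and 1.18 CPM, in the parental libraries. RuxP cells had 15.9 and 13.2 CPM, 14.6 times the parental mean (log2 3.86, SE 0.265, adjusted p = 0.0034). FedP cells had 8.65 and 7.57 CPM, 8.11 times it (log2 3.02, SE 0.258, adjusted p = 0.0046). It was the 1 member called of 10 in each, beside 6.44% and 6.63% of 15924 genes, and both comparisons share the parental libraries. The rise passed in all 14 alternatives run for each, with log2 values of 3.65 to 4.14 for RuxP and 2.78 to 3.31 for FedP. Without parental replicate 1 or 2 it therefore remained.

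The low level belongs to these parental libraries. In the 6 DMSO libraries of the other tables, also HEL cells, BCL2 was at 15.3 to 21.8 CPM, a range that holds RuxP replicate 1 (15.9 CPM) and lies above the other 3 persistent libraries. Those tables were scaled separately and list more genes, and the levels were not tested against each other. Per length BCL2 stayed a minor transcript, with 2.84 TPM in RuxP and 2.19 TPM in FedP cells beside 112 and 231 TPM of BCL2L1.

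**Figure D4:**
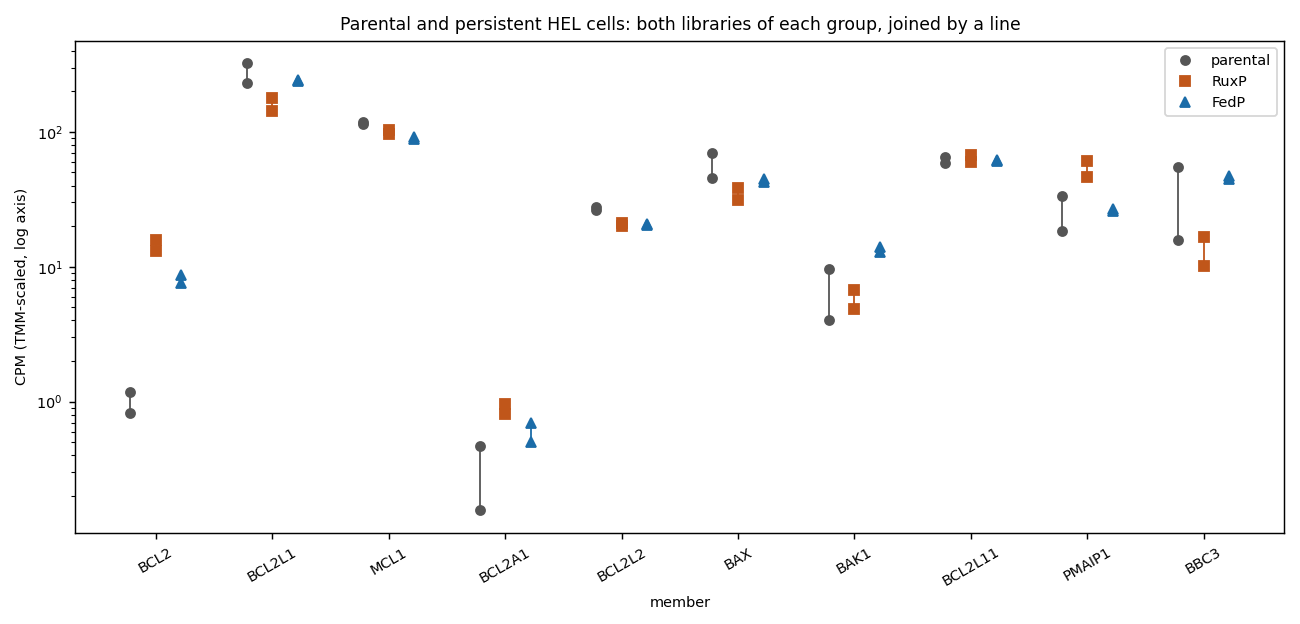
CPM (log axis) of the 10 members in the 2 libraries of parental (circles), RuxP (squares) and FedP (triangles) cells. BCL2 rises clear of the parental pair in both persistent groups, while the parental pairs of BBC3 and BAK1 span much of the range of the persistent libraries. The parental pair of PMAIP1 encloses both FedP points and lies below both RuxP points.

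The other members did not pass against parental cells in the edgeR test of all 6 libraries. BCL2L1 had 324 and 229 CPM in parental, 143 and 179 CPM in RuxP (log2 -0.78, SE 0.216, adjusted p = 0.090) and 243 and 237 CPM in FedP cells. MCL1 had 113 and 119 CPM in parental cells and 96.2 and 103 CPM in RuxP cells, with 88.4 and 91.6 CPM in FedP cells. Both persistent groups lay below parental cells in MCL1, BCL2L2 and the effector BAX, though none of them passed in this test. For BAX the FedP libraries had 45.0 and 42.5 CPM, against 45.5 CPM in the lower parental one. BCL2 and BCL2A1, the latter at few counts, lay above parental cells in both groups. BCL2L11 was nearly the same throughout, with 65.1 and 58.6 CPM in parental, 67.8 and 59.4 CPM in RuxP and 61.5 and 61.2 CPM in FedP cells, and intervals of -0.33 to 0.41 and -0.38 to 0.36.

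PMAIP1 had 18.5 and 33.7 CPM in parental and 61.1 and 45.9 CPM in RuxP cells, without overlap (log2 1.03, SE 0.308, adjusted p = 0.11). BBC3 had 54.5 and 15.7 CPM in parental and 10.2 and 16.6 CPM in RuxP cells (log2 -1.39, adjusted p = 0.20). BAX had 69.8 and 45.5 CPM in parental and 31.3 and 38.5 CPM in RuxP cells (log2 -0.72, adjusted p = 0.14). When parental replicate 2 was left out, BCL2L1 (log2 -1.02), BAX (log2 -1.01) and BBC3 (log2 -2.04) were lower and PMAIP1 (log2 1.52) higher in RuxP cells. DESeq2 called the same 4 members in RuxP cells with all 6 libraries (adjusted p of 0.0096 for BCL2L1 to 0.041 for BAX), and edgeR without a filter on low counts called 3 of them, all but BAX. When parental replicate 1 was left out, BAK1 (log2 1.73) and BBC3 (log2 1.55) were higher in FedP cells, against log2 0.97 and 0.39 with all 6 libraries. These 5 members thus changed more without 1 parental library than with all 6. The library left out was each time the one nearer the persistent cells, so a larger change had to follow. Against the other parental library alone the gap was smaller or reversed. For BBC3, parental replicate 2 (15.7 CPM) lay within the RuxP values, and parental replicate 1 (54.5 CPM) above both FedP values (47.1 and 44.8 CPM). Over all fits the share of all genes called ran from 0.997 to 24.5% for RuxP and from 1.13 to 30.4% for FedP cells.

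FedP and RuxP cells were compared directly, with 1.39% of genes called and no member. At unadjusted p under 0.05 edgeR counted 5 members and 5103 genes. BBC3 was at 47.1 and 44.8 CPM in FedP and at 10.2 and 16.6 CPM in RuxP cells, 3.44 times as high (log2 1.78, SE 0.567, adjusted p = 0.11). BAK1 was at 13.9 and 12.8 CPM against 4.87 and 6.76 CPM (log2 1.20, adjusted p = 0.12). PMAIP1 was at 25.9 and 26.8 CPM against 61.1 and 45.9 CPM (log2 -1.02, adjusted p = 0.11). For these 3, BCL2 and BCL2L1 the groups did not overlap, and neither did they for MCL1, BCL2A1 and BAX. The share of all genes without overlap was not counted, here or in the other comparisons. With 2 libraries per group, non-overlap alone is therefore only a description and no sign of a change. BBC3, BAK1, PMAIP1, BCL2 and BCL2L1 passed in an edgeR fit of these 4 libraries alone (adjusted p of 0.011 to 0.027). Parental libraries enter this comparison only through the shared spread, filter and scaling. Leaving out parental replicate 1 or 2 could therefore barely move the log2 values (1.76 and 1.79 for BBC3). DESeq2 called 4 of these 5, all but BCL2L1. Over all fits of this comparison the share of all genes called ran from 0 to 37.2%. The spread of the parental pair enters the fit of all 6 libraries.

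Marker levels differed between these groups as well. The 10 erythroid and megakaryocyte markers summed to 4097 and 2835 CPM in parental, 1737 and 2007 CPM in RuxP and 3640 and 3579 CPM in FedP cells. In RuxP cells, with 6.44% of all genes called, 4 of them fell and 1 rose. In FedP cells, with 6.63% of all genes called, 2 of them fell. These were the platelet genes PF4 (log2 -4.74, adjusted p = 0.0027) and GP1BA (log2 -2.39, adjusted p = 0.0046), which fell in RuxP cells as well. HBZ, an embryonic globin, was at 0 in 1 RuxP library. The 6 epithelial and stromal markers summed to 18.6 and 16.3 CPM in parental, 26.4 and 33.1 CPM in RuxP and 57.7 and 51.4 CPM in FedP cells, with 0 to 3 of them at 0 in a library. Of the 4 tested the keratin gene KRT8 rose, in RuxP (log2 0.93, adjusted p = 0.032) and in FedP cells (log2 1.82, adjusted p = 0.0055). No tested monocyte, granulocyte or lymphoid marker was called against parental cells. All these marker calls come from the fit of all libraries and are not given without a parental library. Their part in the results on the members was not tested.

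Genes around the family were taken from 5 lists of 92 genes. With BCI at 4 h, where 10.7% of all genes were called, 1 of 12 tested other BCL2 family genes rose, the mitophagy receptor BNIP3L (log2 0.38, adjusted p = 0.037). Of 20 apoptosome, caspase and caspase inhibitor genes 1 fell, the nuclease ENDOG (log2 -0.66, adjusted p = 0.034). Of 15 death receptor genes 2 fell, the adaptor FADD (log2 -0.83, adjusted p = 0.0040) and the TRAIL receptor TNFRSF10A (log2 -0.47, adjusted p = 0.017). Of 19 regulators of BCL2 family proteins 1 rose, the mitochondrial deubiquitinase USP30 (log2 0.96, adjusted p = 0.0023). Of 24 transcription factors with targets in the family 7 fell and 1 rose, and the 7 became 3 without any 1 of the 4 libraries compared. STAT5A (log2 -0.61, adjusted p = 6.6e-04) and STAT3 (log2 -0.56, adjusted p = 0.0011), which carry JAK2 signals, fell, as did E2F1 (log2 -0.86, adjusted p = 0.0019), and the stress factor ATF3 rose (log2 0.86, adjusted p = 0.0044). Without 1 of the libraries at 4 h the calls of STAT5A, STAT3 and E2F1 remained, while those of the other 6 genes named were each lost for 1 or more libraries (adjusted p up to 0.27). At 48 h none of the lists had a called gene.

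With BI-D1870, where 47.1% of all genes were called, 10 factors rose and 10 fell of 24. JUN, a part of AP-1, rose (log2 2.67, adjusted p = 6.4e-16), and MYB (log2 -1.62, adjusted p = 1.8e-15), SPI1 (log2 -1.48, adjusted p = 6.5e-14) and STAT5A (log2 -0.96, adjusted p = 1.3e-13) fell. Of 13 tested other family genes 5 rose and 2 fell. BCL2L12 (log2 0.83, adjusted p = 3.3e-11) and BAD (log2 0.40, adjusted p = 5.4e-04), a BH3-only protein that RSK phosphorylates, rose, and the mitophagy receptors BNIP3 (log2 -1.37, adjusted p = 1.1e-11) and BNIP3L (log2 -0.39, adjusted p = 9.4e-07) fell. Of 19 regulators 10 rose and 5 fell, and the dynein light chains DYNLL1 (log2 0.95, adjusted p = 1.7e-12) and DYNLL2 (log2 0.95, adjusted p = 2.6e-12), which tether BIM and BMF, were among those that rose. Of 20 apoptosome genes 9 rose and 5 fell, and the initiator caspase gene CASP9 was among the former (log2 0.92, adjusted p = 6.1e-09). Of 15 death receptor genes 3 rose and 7 fell, with the adaptor TRADD (log2 1.05, adjusted p = 4.5e-08) higher and the TNF receptor TNFRSF1A (log2 -0.95, adjusted p = 1.2e-11) lower. The median log2 change of the lists ran from -0.30 for the death receptor genes to 0.17, beside -0.01 for all genes. The falling regulators were 1 to 3 with any 1 library of the table left out, the falling apoptosome genes 3 without DMSO replicate 1 or BI-D1870 replicate 2, the falling death receptor genes 4 without BI-D1870 replicate 2, and the rising other family genes 3 without BI-D1870 replicate 1. The calls of the genes named here remained without each library in turn.

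When BCI was added to BI-D1870, with 4.71% of all genes called, JUN was lower (log2 -0.95, adjusted p = 1.9e-08) and SPI1 higher (log2 0.44, adjusted p = 8.6e-05) than with BI-D1870. CYCS, the gene of cytochrome c, was lower too (log2 -0.31, adjusted p = 1.4e-04). In RuxP cells, where 6.44% of all genes were called, 1 of 20 apoptosome genes, the survivin gene BIRC5, rose (log2 1.75, adjusted p = 0.0047), and so did ATF3 (log2 1.20, adjusted p = 0.026) and the TRAIL ligand TNFSF10 (log2 3.65, adjusted p = 0.023). In FedP cells, with 6.63% of all genes called, 3 of 14 tested death receptor genes rose, TNFRSF1B (log2 3.99, adjusted p = 0.011), TNFRSF10A (log2 1.08, adjusted p = 0.031) and TNFRSF10B (log2 1.89, adjusted p = 0.045), and FOXO3 fell (log2 -0.75, adjusted p = 0.033). BIRC5 was lower in FedP than in RuxP cells (log2 -1.31, adjusted p = 0.027). With single libraries left out the rise of BIRC5 in RuxP cells remained, and the other 7 calls were each lost for 2 or more libraries, with an adjusted p up to 0.44 for FOXO3 without FedP replicate 2. In a fit of only the groups compared the calls of TNFSF10, ATF3, TNFRSF10A and FOXO3 were lost, and with limma-voom that of TNFRSF10B.

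The genes most like each member were sought over the 20 libraries by Pearson correlation of log2 CPM, with each table's mean removed, among 9879 genes. The values describe these libraries, which share their treatments and scaling. MCL1 was most like H3-3B (r = 0.953), MAP1LC3B (r = 0.951) and DYNLL2 (r = 0.949). BCL2 was most like PAK1 (r = 0.966), IGSF11 (r = 0.961) and HEG1 (r = 0.960). BCL2L1 was most like RGL2 (r = 0.959), RELA (r = 0.955) and PPIF (r = 0.954), and BCL2L11 most like LRCH3 (r = 0.951), with LARP1 (r = 0.914) and CYFIP1 (r = 0.892) next. PMAIP1 was nearest to CLDND1 (r = 0.951), BAX to TAF1C (r = 0.973), BAK1 to ATP6V0B (r = 0.974) and BCL2L2 to STK36 (r = 0.938).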

How the data were processed

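RNA of 20 HEL libraries was sequenced on a NovaSeq, per the labels. The submitters' processing notes name bcl2fastq, the aligner STAR (2.5.1a), the build GRCh38 and edgeR. The authors deposited raw counts per gene in 3 tables. No source used here names the counting program or its strand setting. Of the counts from 1 to 20, between 59.8 and 73.1% were even, so each fragment may stand for 2 counts. The BCI table heads its later columns 24h, against 48 h in the labels, which were followed.

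Lines that repeated a gene with the same counts were kept once. The deposited counts were tested with edgeR 4.0.16 in R 4.3.3 (filterByExpr, TMM, a quasi-likelihood fit per table over all of its groups, no block), with Benjamini-Hochberg adjustment over the genes of the table. SE was taken as the size of the log2 change divided by the square root of the F statistic. TPM used exon lengths of GENCODE 29, matched for 99.99% of genes. Alternatives were DESeq2 1.42.0, its size factors alone, limma-voom (limma 3.58.1), no filter, a fit of the compared groups alone, a replicate block, leaving out each library, a fold of at least 1.5, and counts divided by 2. For the pathway genes named they were added after seeing the data. The code was tested on simulated data. Members and lists were chosen with earlier results of these data known. Named are the 10 members, up to 4 called genes of each list in a comparison (smallest adjusted p), and the 3 genes most like a member, or the first of them.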

Additional observations from a re-analysis of the deposited data

Results flagged for a closer look

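The response of BCL2L11 to BCI differed between the times by 0.493 on the log2 scale, 48 h minus 4 h, in a test of the difference itself (edgeR, adjusted p = 0.041). The response was -0.51 at 4 h and -0.01 at 48 h, and the DMSO level fell from a mean of 107 to 71.1 CPM between the times. The call was lost for 7 of the 8 libraries when left out in turn.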

How the results depend on the processing

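Members called were 3 with BCI at 4 h, 0 at 48 h, 1 for the difference, 5 for DMSO over time, 6 for BI-D1870, 6 for the pair, 2 for the pair against BI-D1870, 1 for RuxP, 1 for FedP and 0 for FedP against RuxP. DESeq2 size factors, limma-voom, halved counts and the replicate block left all 10 counts of members as they were. The replicate numbers did not pair the samples alike in all groups. Correlations of same-numbered deviations ran from -0.69 for parental with RuxP to 0.82 for DMSO with BCI at 48 h, and that for DMSO with BCI at 4 h was -0.01. For a fold of at least 1.5 the counts were 0 at 4 h, 0 for the difference, 1 over time, 2 for BI-D1870, 2 for the pair and 0 for the pair against BI-D1870. With only the groups compared they were 5 at 4 h, 3 over time and 5 for FedP against RuxP. Without a filter they were 4 at 4 h, 4 for RuxP and 4 for FedP against RuxP. With DESeq2 they were 5 for RuxP and 4 for FedP against RuxP. Leaving out 1 library gave 0 to 4 at 4 h, 0 to 0 at 48 h, 0 to 1 for the difference, 2 to 5 over time, 5 to 7 for BI-D1870, 6 to 6 for the pair, 0 to 2 for the pair against BI-D1870, 1 to 5 for RuxP, 1 to 3 for FedP and 0 to 5 for FedP against RuxP; the lone library is then assumed to vary like the others. The cause was not tested.

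No called change of a member reversed in 1467 alternative values; 55 lost a call and 43 gained one. Of 1337 such values of the pathway genes named, 162 lost the call and 0 reversed. The replicate block ended the calls of TNFSF10 and ATF3 in RuxP cells, of TNFRSF10A, TNFRSF10B and FOXO3 in FedP cells, and of BIRC5 between FedP and RuxP cells. The share of all genes called ran from 0.872 to 28.3% at 4 h, 10.9 to 53.8% for BI-D1870, 0.997 to 24.5% for RuxP, 1.13 to 30.4% for FedP and 0 to 37.2% for FedP against RuxP. For BCL2A1, at 7 to 58 counts, changes were not detectable at this depth; the floor of 3 counts is 0.0351 to 0.0604 CPM and covers counting error only.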

Other observations

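Control levels of some members differed between the tables, which were scaled separately and were not tested against each other. BAK1 was at 16.4 to 25.6 CPM in the DMSO libraries of the first table, at 12.2 and 14.7 CPM in those of the second and at 9.60 and 4.03 CPM in parental cells. MCL1 was lower in parental cells (113 and 119 CPM) than in any DMSO library (160 to 221 CPM). BBC3 was at 20.4 to 43.4 CPM, 12.8 and 10.1 CPM, and 54.5 and 15.7 CPM in the same order of tables. The ratio of PMAIP1 to MCL1 in TPM was 1.24 and 0.872 in the RuxP libraries, above the 0.148 to 0.573 of the other 18 libraries.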
